A study of Tribolium castaneum with 183 samples.

Results

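The genes described here encode antimicrobial peptides of the red flour beetle *Tribolium castaneum*: attacin 1 (TC007737), attacin 2 (TC007738) and attacin 3 (TC007739), defensin 1 (TC006250), defensin 2 (TC010517) and defensin 3 (TC012469), and the coleoptericins TC005093 and TC005096. They are 8 of the 17078 genes in the count table and were picked by identifier as members of these gene families. The table gives only TC identifiers, so the family names are those under which the genes were picked, and their sequences and chromosome positions were not analysed here. Of the 8 genes, 6 exceeded 0.5 cpm (counts scaled to a common library size) in 5 or more females and were tested. Attacin 3 and coleoptericin TC005096 did not pass.

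Antimicrobial peptides are small secreted proteins of the innate immune system of insects. They are made mainly in the fat body and in blood cells, released into the haemolymph, and switched on by the Toll and IMD signalling pathways when microbes are sensed. Attacins are glycine-rich and act chiefly on Gram-negative bacteria, defensins are cysteine-rich and act chiefly on Gram-positive bacteria, and coleoptericins are a family first described in beetles.

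Gene expression was measured by RNA-seq in whole bodies of single females of Cro1, a strain founded from a wild population and kept in the laboratory at 33°C and 70% relative humidity (r.h.). In all, 43 females lived in Hot-Dry (37°C, 30% r.h.), 45 in Hot (37°C, 70% r.h.), 48 in Dry (33°C, 30% r.h.) and 47 in Control (33°C, 70% r.h.). All entered their condition as eggs, all had been kept with a male for the fitness assay before they were frozen, and the labels give their age as 8 weeks, while by the study's methods they were older when frozen. No infection is named in any condition. The females came from 12 full-sib families that were split over the conditions, and the 3 or 4 females of 1 family in 1 condition developed together in a vial, so an effect of the vial cannot be told apart from a response particular to a family.

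Libraries held 4873334 to 15533288 counts, with a median of 8893822, at which 3 counts make 0.337 cpm. Levels of attacin 1, defensin 3 and the coleoptericins lie near this value and carry a large counting error. The vitellogenin Vg1 (TC013602), a yolk protein precursor made by the fat body, was found in all females, at 296 to 263105 cpm, and the germ line gene Vasa (TC010103) at 30.6 to 138 cpm. In whole bodies, fewer cells that express a gene and less RNA per cell cannot be told apart.

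Attacin 2 was lower under drought at both temperatures, at 0.539 times the level of Hot in Hot-Dry and 0.555 times the level of Control in Dry. In Hot-Dry its level ran from 0.736 to 24.9 cpm with a median of 3.46 cpm, against 1.47 to 32.0 cpm with a median of 6.07 cpm in Hot. The log2 fold change of Hot-Dry relative to Hot was -0.89 ± 0.21 (SE), with an adjusted p of 0.00442 in edgeR's quasi-likelihood test. Adjusted p-values are Benjamini-Hochberg values over all 12113 tested genes, a gene at 0.05 or below is called differentially expressed (DE), and a log2 fold change above 0 means a higher level in the condition named first. The ranges overlapped, and 6 of 43 Hot-Dry females were above the median of Hot. In Dry attacin 2 ran from 0.547 to 8.66 cpm with a median of 3.23 cpm, against 1.26 to 52.0 cpm with a median of 4.75 cpm in Control. The log2 fold change of Dry relative to Control was -0.85 ± 0.20 (adjusted p = 0.0108), and 13 of 48 Dry females were above the Control median. These comparisons of drought, at 37°C and at 33°C, were made on separate females. Their difference, the interaction of heat and drought, was -0.04 ± 0.29 on the log2 scale (adjusted p = 1.0).

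The DE call of attacin 2 in Dry relative to Control depended on the Control female 293-4. This female had the highest level of all females, 52.0 cpm, and took 17.6% of the summed cpm of its condition. Without this female the log2 fold change of Dry relative to Control was -0.60 (adjusted p = 0.136), and without the whole family 293 it was -0.57 (adjusted p = 0.182). The fall in Hot-Dry relative to Hot remained DE without each of the females with the highest level of a tested gene in their condition, and lost its call without family 103 (log2 fold change -0.70, adjusted p = 0.0697). On counts summed per vial, with family as a block, neither fall passed the test (adjusted p = 0.106 relative to Hot and 0.185 relative to Control). Without that block neither passed (adjusted p = 0.794 relative to Hot).

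Attacin 1 was lower in Hot-Dry than in Hot, on a median of only 3 counts per female. In Hot-Dry it ran from 0 to 3.09 cpm with a median of 0.357 cpm, against 0 to 7.42 cpm with a median of 0.473 cpm in Hot. The log2 fold change of Hot-Dry relative to Hot was -1.08 ± 0.29 (adjusted p = 0.0182), and 13 of 43 Hot-Dry females were above the median of Hot. This call was lost without the Hot female 103-4, which held the highest level (log2 fold change -0.86, adjusted p = 0.0833), and without family 103 (-0.75, adjusted p = 0.229). It was also lost on counts summed per vial with family as a block (-0.92, adjusted p = 0.370). In Dry the highest female had 0.708 cpm and the median was 0.300 cpm, against a highest value of 5.94 cpm and a median of 0.451 cpm in Control. The log2 fold change of Dry relative to Control was -0.95 ± 0.30 and did not pass the test (adjusted p = 0.121).

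**Figure D1:**
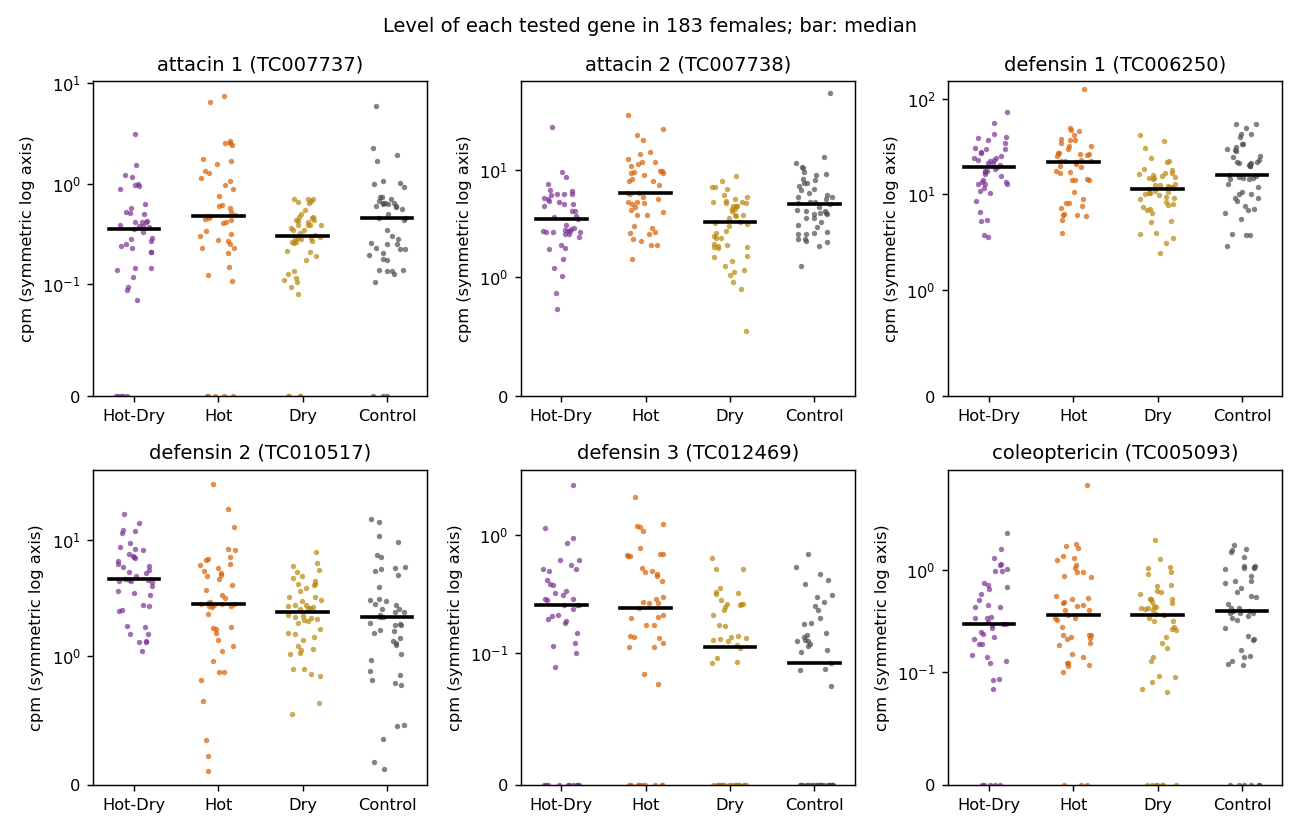
Level of the 6 tested antimicrobial peptide genes in cpm in each of 43 Hot-Dry, 45 Hot, 48 Dry and 47 Control females. Each point is a female and each bar a median. The axis is logarithmic with a linear part next to 0. Attacin 2 has medians of 3.46 cpm in Hot-Dry, 6.07 in Hot, 3.23 in Dry and 4.75 in Control, and defensin 3 is at 0 in 10 Hot-Dry, 9 Hot, 20 Dry and 20 Control females.

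Relative to Control, attacin 2 fell in Hot-Dry, with a log2 fold change of -0.54 ± 0.21 (adjusted p = 0.0348), and 15 of 43 Hot-Dry females were above the Control median. Without the Control female 293-4 this value was -0.29 (adjusted p = 0.255), and the call was also lost without family 103, 293, 348 or 1077 (-0.25 to -0.52, adjusted p of 0.0515 to 0.376). Attacin 1 had a log2 fold change of -0.43 ± 0.30 in Hot-Dry relative to Control (adjusted p = 0.279), which became DE without family 496 (-0.81, adjusted p = 0.0312). In Hot the log2 fold changes relative to Control were 0.35 ± 0.20 for attacin 2 (adjusted p = 0.199) and 0.64 ± 0.27 for attacin 1 (adjusted p = 0.0712), and neither passed the test. Without the same Control female both did, with 0.60 for attacin 2 (adjusted p = 0.0105) and 0.93 for attacin 1 (adjusted p = 0.00496), and attacin 1 also did without family 1077 (0.77, adjusted p = 0.0356). Leaving out this 1 library thus changed the call of attacin 2 in all comparisons with Control and that of attacin 1 in Hot.

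In Hot relative to Dry, attacin 1 was higher by 1.59 ± 0.29 (adjusted p = 3.07e-06) and attacin 2 by 1.20 ± 0.20 (adjusted p = 5.05e-07) on the log2 scale, a 3.01-fold and a 2.30-fold difference. Attacin 2 was above the Dry median in 35 of 45 Hot females, and the vial mean of its log2 cpm was higher in Hot than in Dry in 12 of 12 families. Both attacins kept this call when each family, or each female with the highest level of a tested gene, was left out. Attacin 1 lost it with limma-voom with a correlation within vials (0.77, adjusted p = 0.232) and in the exact sign-flip test over 12 families (0.66, adjusted p = 0.172), while attacin 2 was called in 44 of 44 alternatives.

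Attacin 3 was barely detected. It had 0 counts in the 43 Hot-Dry females, 2 counts in Hot, 1 in Dry and 1 in Control, each in a separate female. A count of 0 at the median library size allows up to 0.337 cpm in a female, so differences between conditions were not detectable at this depth.

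Defensin 1, with a median of 142 counts per female, was higher in both hot conditions than in Dry. In Hot-Dry it ran from 3.59 to 71.9 cpm with a median of 19.1 cpm, and in Hot from 3.97 to 125 cpm with a median of 21.6 cpm. The range was 2.41 to 41.9 cpm with a median of 11.4 cpm in Dry, and 2.90 to 54.4 cpm with a median of 15.8 cpm in Control. Dry was thus the condition with the lowest median, and all ranges overlapped. Defensin 1 was higher in Hot-Dry than in Dry by 0.76 ± 0.20 on the log2 scale (adjusted p = 0.00132), and 35 of 43 Hot-Dry females were above the Dry median. It was also higher in Hot than in Dry, by 0.88 ± 0.20 (adjusted p = 0.000150). With limma-voom with a correlation within vials neither passed (adjusted p = 0.115 for Hot-Dry and 0.0683 for Hot). On vial sums both passed with family as a block (adjusted p = 0.00508 and 0.00174 in the same order), and without that block Hot-Dry did not (adjusted p = 0.0821). No comparison with Control passed the test. The log2 fold change was 0.12 ± 0.20 in Hot-Dry (adjusted p = 0.706), 0.24 ± 0.20 in Hot (adjusted p = 0.408) and -0.64 ± 0.19 in Dry (adjusted p = 0.0944). The last of these became DE when the Dry female with the highest level, 710-2, was left out (-0.71, adjusted p = 0.0427). It was also DE on females with family as a block (-0.68, adjusted p = 0.00831), but not on vial sums with that block (-0.71, adjusted p = 0.265).

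Defensin 2 was higher in Hot-Dry than in Dry and in Control. In Hot-Dry it ran from 1.10 to 16.6 cpm with a median of 4.57 cpm, against 0.547 to 7.79 cpm with a median of 2.40 cpm in Dry and 0.127 to 15.0 cpm with a median of 2.15 cpm in Control. The log2 fold change of Hot-Dry was 0.76 ± 0.24 relative to Control (adjusted p = 0.00971) and 1.02 ± 0.24 relative to Dry (adjusted p = 0.000382). In each of these comparisons 35 of 43 Hot-Dry females were above the median of the other condition, and the vial mean was higher in Hot-Dry in 12 of 12 families. Both calls held without each family and without each of the highest females, but on vial sums without family as a block neither passed (adjusted p = 0.256 relative to Control and 0.0588 relative to Dry). The 4 markers of the reproducing female body were lower in Hot-Dry than in Control, with log2 fold changes of -0.66 for Vg1 (adjusted p = 0.00154), -0.82 for Vg2 (TC010839, adjusted p = 0.000111), -0.33 for the vitellogenin receptor VgR (TC008595, adjusted p = 9.05e-06) and -0.21 for Vasa (adjusted p = 0.00353). Their part in the levels of the antimicrobial peptide genes was not tested.

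In Hot, defensin 2 ran from 0.111 to 30.0 cpm with a median of 2.78 cpm. Its log2 fold change in Hot was 0.43 ± 0.24 relative to Control, which did not pass the test (adjusted p = 0.194), and 0.68 ± 0.24 relative to Dry, which did (adjusted p = 0.0198). The comparison with Dry lost its call without the Hot female 863-1, which held the highest level (log2 fold change 0.50, adjusted p = 0.0924), and without family 348 or 863 (0.61 and 0.48, adjusted p = 0.0549 and 0.138). The call was also lost on vial sums with family as a block (0.63, adjusted p = 0.0519) and with limma-voom (0.25, adjusted p = 0.490). In the sign-flip test over 12 families the value was 0.35 (adjusted p = 0.268). Between Hot-Dry and Hot the log2 fold change was 0.33 ± 0.24 (adjusted p = 0.633).

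Defensin 3 was higher in both hot conditions than in both others, at a few counts per female. It was counted at least once in 33 of 43 Hot-Dry, 36 of 45 Hot, 28 of 48 Dry and 27 of 47 Control females. Its highest and median values were 2.65 and 0.256 cpm in Hot-Dry, 2.11 and 0.242 cpm in Hot, 0.640 and 0.114 cpm in Dry and 0.691 and 0.0924 cpm in Control, and the lowest was 0 in each. The medians all lie below the 0.337 cpm that 3 counts make, and the total was 418 counts over all females.

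For heat, the log2 fold change of defensin 3 was 1.25 ± 0.32 in Hot-Dry relative to Dry (adjusted p = 0.00117) and 1.44 ± 0.33 in Hot relative to Control (adjusted p = 0.000349), a 2.38-fold and a 2.72-fold difference on separate females. It was 1.34 ± 0.33 in Hot-Dry relative to Control (adjusted p = 0.000747) and 1.35 ± 0.32 in Hot relative to Dry (adjusted p = 0.000370). All of these calls held without each family and without each of the highest females. With limma-voom with a correlation within vials none of the 4 passed (adjusted p of 0.115 to 0.182), and Hot-Dry relative to Dry did not pass in the exact sign-flip test over 12 families (adjusted p = 0.0813). All 4 markers of the reproducing female body were also lower in Hot-Dry than in Dry (-0.27 to -0.80), while in Hot relative to Control VgR (-0.34, adjusted p = 6.15e-06) and Vasa (-0.19, adjusted p = 0.00985) were DE and Vg1 (-0.31, adjusted p = 0.188) and Vg2 (-0.41, adjusted p = 0.0690) were not. For drought, the log2 fold change of defensin 3 was -0.10 ± 0.30 in Hot-Dry relative to Hot (adjusted p = 0.945) and 0.09 ± 0.37 in Dry relative to Control (adjusted p = 0.990), and the 95% intervals of -0.68 to 0.48 and -0.63 to 0.81 leave room for changes of either sign.

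**Figure D2:**
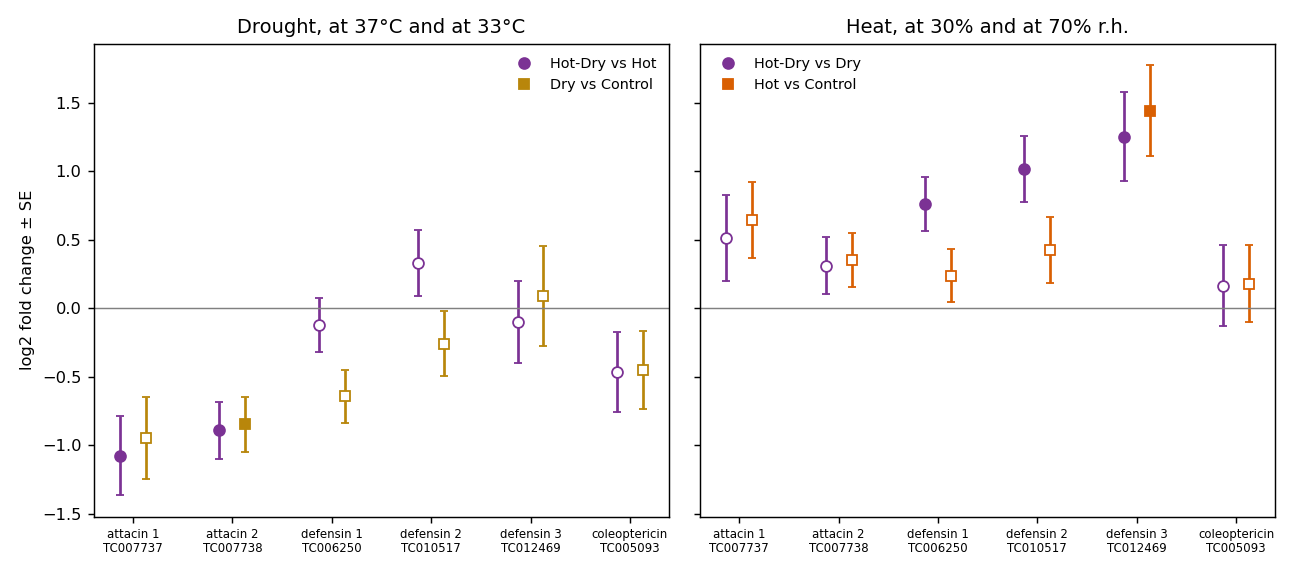
Log2 fold change ± SE of the 6 tested genes for drought (left, Hot-Dry relative to Hot and Dry relative to Control) and for heat (right, Hot-Dry relative to Dry and Hot relative to Control). Filled symbols passed the test at an adjusted p of 0.05, open symbols did not. For drought the filled symbols are the attacins, from -1.08 to -0.85, and for heat they are defensins, from 0.76 to 1.44.

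Coleoptericin TC005093 passed the test in none of the 6 comparisons. Its medians were 0.297 cpm in Hot-Dry, 0.361 in Hot, 0.360 in Dry and 0.396 in Control, and its highest values 2.31, 6.85, 1.96 and 1.76 cpm in the same order. The largest log2 fold change was 0.63 ± 0.29 in Hot relative to Dry (adjusted p = 0.0807, unadjusted p = 0.0297). That comparison became DE without the Dry female 496-3, which held the highest level in Dry (log2 fold change 0.76, adjusted p = 0.0333), and without family 432 or 496 (0.77 and 0.79, adjusted p = 0.0499 and 0.0408). It was also DE on females with family as a block (0.59, adjusted p = 0.0440), but not on vial sums with that block (0.57, adjusted p = 0.111). Relative to Control the log2 fold change was -0.29 ± 0.29 in Hot-Dry, 0.18 ± 0.28 in Hot and -0.45 ± 0.29 in Dry. The second gene of the family, coleoptericin TC005096, had 7 counts in Hot-Dry, 25 in Hot, 6 in Dry and 10 in Control. It was counted in 7 of 43 Hot-Dry, 12 of 45 Hot, 5 of 48 Dry and 7 of 47 Control females, and 7 of the 25 counts in Hot came from a single female.

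Read together over all genes tested, the 8 genes stood as follows. In Dry relative to Control 1 of the 6 tested genes was DE, and it fell, while 0.809% of the 12113 genes tested were DE. In Hot relative to Control 1 of 6 was DE and rose, against 25.1% of all genes. In Hot-Dry relative to Control 3 of 6 were DE, defensins 2 and 3 higher and attacin 2 lower, against 30.7% of all genes. Hot relative to Dry gave 5 of 6, all higher in Hot, against 32.2% of all genes. Hot-Dry relative to Dry gave 3 of 6, the 3 defensins, all higher in Hot-Dry, against 32.3% of all genes. Hot-Dry relative to Hot gave 2 of 6, both attacins and both lower in Hot-Dry, against 2.28% of all genes. The median log2 fold change of the 6 genes was 1.04 in Hot relative to Dry and 0.64 in Hot-Dry relative to Dry, where the median of all genes was -0.01 in both.

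Tested on females, the interaction of heat and drought was DE in 0 of 6 genes, with 0.00826% of all genes DE. On females 0 of 6 were at an unadjusted p under 0.05. DESeq2 and limma-voom also called 0 of 6. The largest values were 0.59 ± 0.34 for defensin 2 and 0.52 ± 0.28 for defensin 1 (adjusted p = 1.0 for both). On vial sums with family as a block, defensin 1 had 0.61 ± 0.28 (unadjusted p = 0.0344 in edgeR's quasi-likelihood test). By the sign-flip test over 12 families its unadjusted p was 0.0112, with 10 of 12 families above 0. No other gene was at an unadjusted p under 0.05 in either test. Neither value of defensin 1 passed after adjustment over all genes. Its values of -0.12 for drought at 37°C and -0.64 at 33°C were therefore not shown to differ after that adjustment.

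Females of 1 vial were alike, with a correlation of 0.350 within vials that limma estimated across all genes. That fit held no term for family, so the value includes likeness of the family as well as of the vial. By deviations from condition means, females of 1 family had a mean r of 0.309 in the same condition. It was 0.196 in different conditions with different numbers. That fit and vial sums without family as a block leave out that families were split over the conditions. With the counts of each vial summed, so that 48 vials were compared with family as a block, 0 of 6 genes were DE in Dry relative to Control (0.0413% of all genes DE), 1 of 6 in Hot relative to Control (16.2%) and 2 of 6 in Hot-Dry relative to Control (22.8%). The count was 4 of 6 in Hot relative to Dry (25.7%), 3 of 6 in Hot-Dry relative to Dry (25.2%) and 0 of 6 in Hot-Dry relative to Hot (0.38%). Relative to Control, the calls made on vials were defensin 3 in Hot (log2 fold change 1.46 ± 0.38, adjusted p = 0.00702) and in Hot-Dry (1.31 ± 0.38, adjusted p = 0.0118) and defensin 2 in Hot-Dry (0.82 ± 0.24, adjusted p = 0.0129). The log2 fold changes of attacin 2 under drought were -0.82 ± 0.22 in Hot-Dry relative to Hot and -0.89 ± 0.23 in Dry relative to Control. The vial mean of attacin 2 was lower in Hot-Dry than in Hot in 12 of 12 families and lower in Dry than in Control in 10 of 12. A sign-flip test, exact and two-sided, on the differences of the 12 families gave unadjusted p = 0.000488, the smallest it can give, in the comparison with Hot and 0.00293 in that with Control, and adjusted p = 0.114 and 0.444 over all genes.

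Families differed in the level of most of these genes. On vial sums, the effect of family passed edgeR's quasi-likelihood test in 5 of 6 genes, where 77% of all genes did: attacin 1 (adjusted p = 0.0243), attacin 2 (5.38e-05), defensin 1 (6.44e-05), defensin 2 (9.0e-06) and coleoptericin TC005093 (1.1e-05). Defensin 3 did not pass (adjusted p = 0.0614). Averaged over the 4 conditions, attacin 2 was at 2.34 cpm in family 245 and at 10.7 cpm in family 496, a 4.55-fold range, and defensin 1 ran from 7.36 cpm in family 245 to 36.4 cpm in family 863. Defensin 2 ran from 1.07 cpm in family 245 to 6.77 cpm in family 293. Family 245 had the lowest mean in all genes but coleoptericin TC005093, in which family 799 was lowest at 0.208 cpm and family 863 highest at 1.62 cpm. Of the variance of log2 cpm, condition took 16.6% in attacin 2, 8.99% in defensin 1 and 10.8% in defensin 2, and family a further 36.9%, 37.4% and 43.6% in the same order. Vials added 11.5%, 13.5% and 10.5%, and 35.0%, 40.1% and 35.1% lay within vials. These shares are not adjusted for the number of groups, and there were more families (12) than conditions (4). In defensin 3 condition took 13.1% and family 12.2%.

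**Figure D3:**
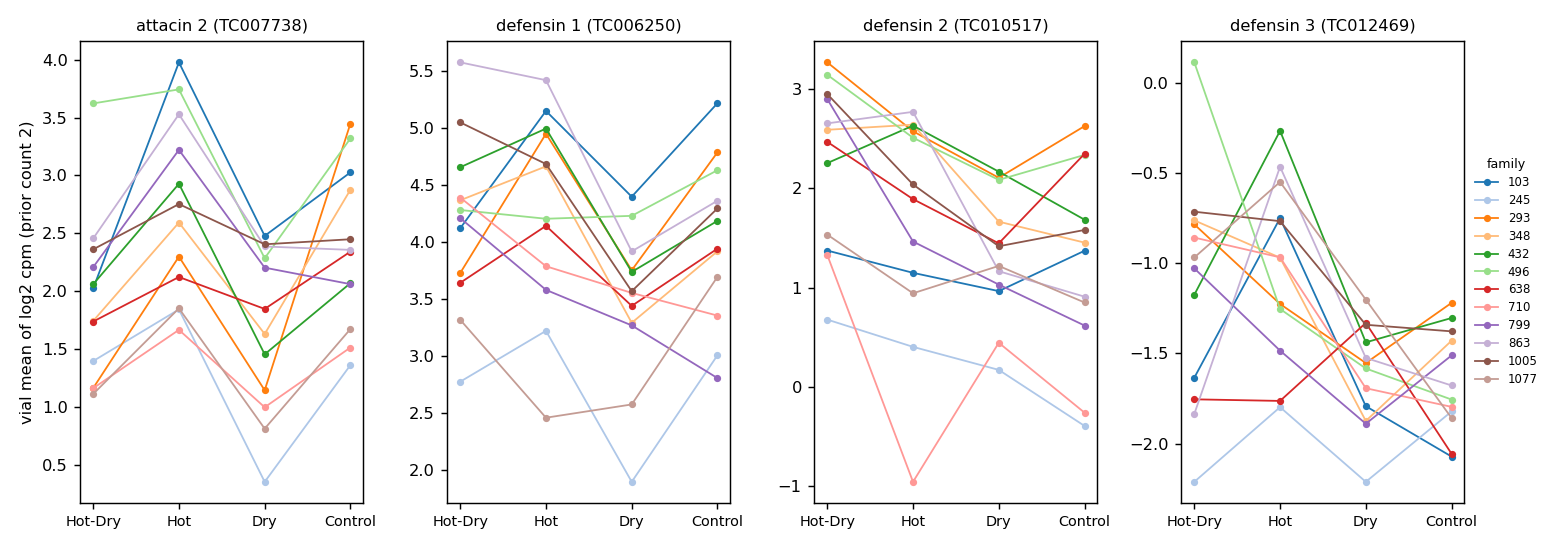
Vial mean of log2 cpm (prior count 2) of attacin 2, defensin 1, defensin 2 and defensin 3 in the 12 families, each a line over Hot-Dry, Hot, Dry and Control. A point stands for 3 or 4 females. Attacin 2 is lower in Hot-Dry than in Hot in all 12 families, defensin 2 is higher in Hot-Dry than in Dry in all 12, and defensin 3 is higher in Hot than in Control in 11 of 12.

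In the test of family by condition on single females, 4 of 6 genes passed, both attacins and defensins 1 and 2, where 61.4% of all genes did. Females of 1 family and condition shared a vial, so a response of the family cannot be told apart from an effect of the vial. In Hot relative to Control the vial mean of attacin 2 differed by 1.17 in family 863 and by -1.15 in family 293 on the log2 scale. The 3 Control females of family 293 ran from 4.14 to 52.0 cpm, the highest being female 293-4. Defensin 2 in Hot-Dry relative to Control differed by 2.28 in family 799 and by 0.00 in family 103. In Hot its mean was 12.4 cpm in family 863 and 0.334 cpm in family 710. The mean of family 863 came from 3 females at 1.58 to 30.0 cpm, the highest being female 863-1.

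Within vials, where females share family and condition, some of the genes varied together. Of the 28 pairs of the 8 genes, 7 had a correlation of their log2 cpm deviations from the vial means that passed a two-sided permutation test with Benjamini-Hochberg adjustment over the 28 pairs. The closest pair was attacin 1 with attacin 2, with Pearson's r = 0.61 and Spearman's rho = 0.54 over all females (permutation p = 1e-05 for both, the smallest the 100000 resamples can give, adjusted p = 0.000140). Without the 2 females farthest from the median of attacin 1, r was 0.58. Here and below these 2 females were chosen by the gene of the pair named first only. Attacin 2 had the highest r with attacin 1 of the 12112 other genes tested, and attacin 1 the highest with attacin 2. Of the 10 females with the most attacin 1 in all, 6 were among the 10 with the most attacin 2. Since it is not stated how reads that fit several genes were counted, values of such copies are uncertain, and the part of shared reads in this correlation was not tested.

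The second closest pair crossed the families: defensin 1 and coleoptericin TC005093 had r = 0.40 and rho = 0.38 (permutation p = 1e-05 for both, adjusted p = 0.000140), and r = 0.39 without the 2 females farthest from the median. Coleoptericin TC005093 had a higher r with defensin 1 than with any other of the 12112 genes. The Hot female 863-3 had the highest level of both, 125 cpm of defensin 1 and 6.85 cpm of the coleoptericin, and the Hot-Dry female 863-3 had the next highest of both, 71.9 and 2.31 cpm. Attacin 2 was also correlated with coleoptericin TC005093 (r = 0.28 and rho = 0.28, permutation p = 0.00106 and 0.0008, adjusted p = 0.00989 and 0.00609). It was correlated with defensin 1 (r = 0.28 and rho = 0.26, permutation p = 0.00142 and 0.00182, adjusted p = 0.00994 and 0.0102) and with defensin 3 (r = 0.24 and rho = 0.26, permutation p = 0.00696 and 0.00379, adjusted p = 0.0325 and 0.0177). Without the 2 females farthest from the median these r were 0.29, 0.27 and 0.22. Attacin 1 was correlated with coleoptericin TC005093 (r = 0.27 and rho = 0.28, permutation p = 0.00178 and 0.00087, adjusted p = 0.00997 and 0.00609, r = 0.25 without the 2 farthest females). The remaining pair that passed was defensin 1 with coleoptericin TC005096 (r = -0.19 and rho = -0.21, permutation p = 0.00898 and 0.00556, adjusted p = 0.0359 and 0.0222, r = -0.20 without the 2 farthest females), a gene at 0 counts in 152 females.

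**Figure D4:**
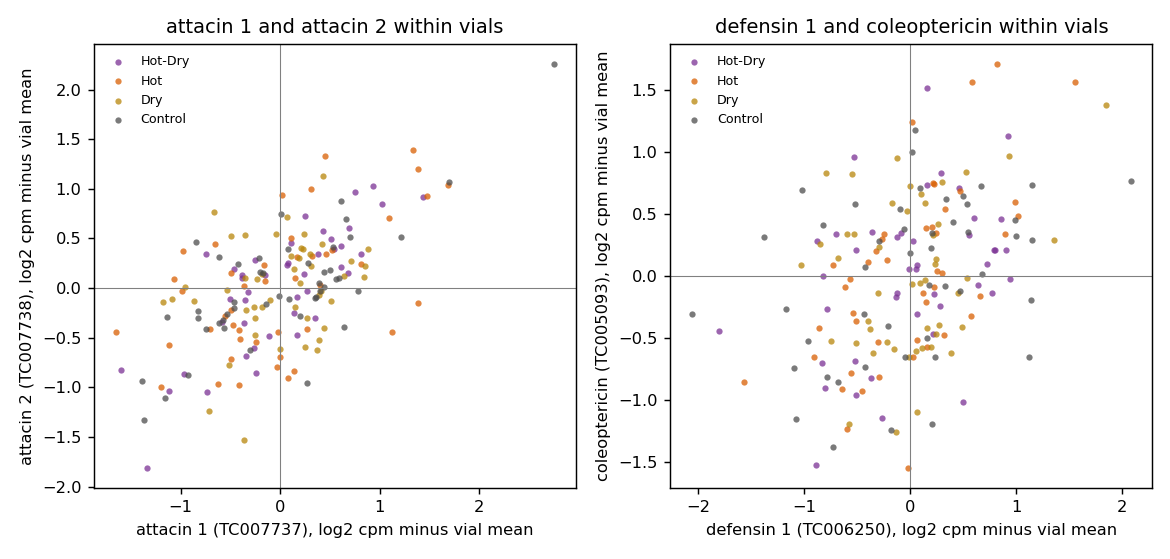
Deviation of log2 cpm from the vial mean in all females for attacin 1 against attacin 2 (left, r = 0.61) and defensin 1 against coleoptericin TC005093 (right, r = 0.40). Each point is a female, coloured by condition. The Control female 293-4 is the point at the upper right of the left panel.

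None of the 7 pairs included defensin 2. Its within-vial r was -0.04 with attacin 2 (adjusted permutation p = 0.808), 0.16 with defensin 1 (adjusted permutation p = 0.254) and -0.000451 with coleoptericin TC005093 (adjusted permutation p = 0.997). With deviations from condition means, which keep the differences between families, r of defensin 2 was 0.31 with attacin 2 and 0.40 with defensin 1. The r of attacin 1 with attacin 2 within vials was 0.79 in Hot-Dry, 0.55 in Hot, 0.24 in Dry and 0.75 in Control.

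Some females had the highest level of several genes. The Hot-Dry female 496-2 had the highest level in its condition of attacin 1 (3.09 cpm), attacin 2 (24.9 cpm), defensin 2 (16.6 cpm) and defensin 3 (2.65 cpm). The second highest Hot-Dry female had 9.49 cpm of attacin 2. No Dry female was among the 10 with the highest levels over all conditions of either attacin or any defensin, and 7 of the 10 with the most attacin 2 were from Hot. The coefficient of variation of attacin 2 was 87.8% in Hot-Dry, 78.2% in Hot, 56.7% in Dry and 117% in Control.

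Over all females, the genes most like each antimicrobial peptide gene were sought among the 10531 genes that averaged 1 cpm or more, by Pearson's r of log2 cpm deviations from the condition means. For attacin 1 these were TC009605 (r = 0.51), TC008650 (0.47) and TC001053 (0.44), and for attacin 2 TC002636 (0.58), TC014783 (0.56) and TC004609 (0.54). For defensin 1 they were TC013620 (0.61), TC009950 (0.61) and TC007601 (0.59), and for defensin 2 TC003178 (0.63), TC000800 (0.61) and TC013620 (0.61), so that TC013620 was common to both. Defensin 3 had lower values, the highest of 0.39 with TC007807, and coleoptericin TC005093 reached 0.48 with TC003110. These are descriptions over females that share families and vials.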

How the data were processed

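RNA of whole single females was sequenced, and 1 table of raw counts of reads per gene was deposited by the authors. According to the methods, single-end reads were trimmed, mapped with STAR (version 2.5 in the submitters' processing notes) and counted with featureCounts on an Ensembl Metazoa annotation. How strand and reads that fit several genes were treated is not stated, and the labels do not give the sequencing run of a library, so runs were not compared. Each library was assigned to its condition by its label, and the number before the hyphen in a female's name was taken as its family, which the labels do not explain.

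The members and gene lists were chosen with earlier results of these data known. The filter kept 12113 of 17078 genes, those that exceeded 0.5 cpm in 5 or more females. Counts were scaled by TMM factors (0.710 to 1.29) and tested with edgeR 4.0.16 in R 4.3.3, with the quasi-likelihood F test and 1 mean per condition. Benjamini-Hochberg adjustment covered all genes of a comparison, and an adjusted p of 0.05 or less is called DE. Positive log2 fold changes mean a higher level in the condition named first. The SE of a log2 fold change is its size over the square root of F. P-values on females treat females of 1 vial as independent, so vial sums with family as a block and an exact sign-flip test over 12 families are given as well. Family was tested on vial sums with 11 degrees of freedom, and family by condition on females with 33. Correlations used log2 cpm with a prior count of 2, and 100000 permutations within vials.

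The text names the 8 members, the 3 genes with at least 1 cpm most like each tested member (only the first for defensin 3 and coleoptericin TC005093), and 4 markers of the reproducing female body. Neighbours on the chromosome and other immune genes were to be taken from the RefSeq gene table given here, which pairs no TC identifiers, so none is named. The quasi-likelihood test of conditions, the test of family, the sign-flip test and the correlation within vials were first tested on simulated data. The test of family by condition, DESeq2 and limma-voom were not. Alternatives were other normalizations, tests (DESeq2 1.42.0, limma 3.58.1), filters and thresholds, the replicate block, vial sums, and leaving out small libraries or families. Leaving out the highest females was chosen after seeing the data.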

Additional observations from a re-analysis of the deposited data

Results flagged for a closer look

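In 4 of the 6 tested genes the response to the conditions differed between families, in edgeR's quasi-likelihood test of family by condition on all females. The adjusted p was 0.000402 for attacin 1 (TC007737), 0.00232 for attacin 2 (TC007738), 0.0148 for defensin 1 (TC006250) and 0.0132 for defensin 2 (TC010517). It was 0.179 for defensin 3 and 0.226 for coleoptericin TC005093. This difference was also found in 61.4% of all genes. Females of 1 family and condition shared a vial, so a response of the family cannot be told apart from an effect of the vial.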

How the results depend on the processing

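The number of tested genes called DE in Dry relative to Control was 1, and it was 2 with the replicate block or family as a block, and 0 with limma-voom (with or without a correlation within vials), vial sums (with or without family as a block), the sign-flip over 12 families or an adjusted p of 0.01. In Hot relative to Control it was 1, and 0 with limma-voom with a correlation within vials. It was also 0 with a stricter filter (1 cpm in 43 females, which leaves out attacin 1, defensin 3 and coleoptericin TC005093). In Hot-Dry relative to Control and to Dry it was 3 in each, and 1 in each with vial sums or limma-voom with a correlation within vials. In Hot relative to Dry it was 5, with coleoptericin TC005093 added by family as a block. It was 3 with the stricter filter or sign-flip, and 1 with limma-voom with a correlation within vials. In Hot-Dry relative to Hot it was 2, and 1 with limma-voom, the stricter filter or an adjusted p of 0.01, and 0 with vial sums (with or without family as a block), limma-voom with a correlation within vials or sign-flip. Effects of family were called in 5 genes, and in 3 with the stricter filter, all of the tested genes it keeps. When 1 family or 1 highest female was left out, the counts ran from 0 to 2 in Dry relative to Control, 1 to 3 in Hot relative to Control and 0 to 2 in Hot-Dry relative to Hot. The share of all genes called changed as well. In Dry relative to Control it was 0.0413% on vial sums with family as a block, against 0.809% on females. In Hot-Dry relative to Hot it was 0.38% against 2.28%. Shares under the other alternatives are not given, so counts there are not set against all genes.

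Females with the same name number in different conditions deviated together with a mean r of 0.191 (43 of 48 numbers above 0.1, lowest 0.0137), and females of 1 family with different numbers 0.196. With the replicate block, defensin 1 in Dry relative to Control (-0.62, adjusted p = 0.0343) and defensin 2 in Hot-Dry relative to Hot (0.61, adjusted p = 0.0345) became DE and defensin 2 in Hot relative to Dry (0.41, adjusted p = 0.0617) did not pass, and no other call of a gene changed. On vial sums with family as a block neither gained call passed (defensin 1 adjusted p = 0.265, defensin 2 adjusted p = 0.625).

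Values that changed sign had not passed the test. Defensin 2 in Dry relative to Control was 0.0996 with limma-voom, 0.0411 with a correlation within vials and 0.0630 by sign-flip. Without the 6 smallest libraries defensin 1 was 0.00334 and defensin 3 0.0255 in Hot-Dry relative to Hot, and the interaction of attacin 2 was 0.0208, that of coleoptericin TC005093 0.309 and its value in Hot relative to Control -0.137. The interaction of attacin 1 was 0.0178 and 0.0214 and that of attacin 2 0.129 and 0.0716 on vial sums without and with family as a block. That of coleoptericin TC005093 was 0.0749 with limma-voom, 0.0147 with the replicate block, 0.00128 with vial sums and family as a block, 0.0905 with a correlation within vials and 0.0588 by sign-flip. When 1 family or highest female was left out, defensin 3 ranged from -0.0748 to 0.262 in Dry relative to Control and -0.413 to 0.0594 in Hot-Dry relative to Hot, defensin 1 from -0.0267 to 0.284 in Hot-Dry relative to Control and -0.203 to 0.0201 in Hot-Dry relative to Hot, and coleoptericin TC005093 from -0.0783 to 0.309 in Hot relative to Control and -0.0198 to 0.293 in Hot-Dry relative to Dry. The interaction ranged from -0.482 to 0.193 for attacin 1, -0.313 to 0.175 for attacin 2, -0.463 to 0.0152 for defensin 3 and -0.270 to 0.244 for coleoptericin TC005093.

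Of 28 pairs, 7 correlations passed within vials, 16 with deviations from condition means, and 1 in Hot-Dry, 3 in Hot, 0 in Dry and 1 in Control alone, where fewer females were compared. Counts of attacin 1, defensin 3 and the coleoptericins are too few to show small changes, and the cause of the changed calls was not tested.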

Other observations

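The relation to Vg1 was examined after the data had been seen, in 6 correlations of log2 cpm deviations from vial means over all females with a two-sided permutation test. Defensin 2 was lower by rank in females with more Vg1, with Spearman's rho = -0.31 (permutation p = 0.00033, adjusted p = 0.00198) and Pearson's r = -0.22 (permutation p = 0.0108, adjusted p = 0.0646), which did not pass, and r was -0.28 without the 2 females farthest from the median of Vg1. Within conditions r was 0.01 in Hot-Dry, -0.51 in Hot, -0.18 in Dry and -0.49 in Control. The other 5 genes had r from -0.17 to 0.20, and none passed the adjustment by r or by rho. Both measures come from the same library, in which Vg1 alone takes a median of 95208 cpm.

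Without a filter on low counts, coleoptericin TC005096 was higher in Hot than in Dry by 1.39 on the log2 scale (adjusted p = 0.00172 in edgeR's quasi-likelihood test), from 25 counts in 12 of 45 Hot females against 6 counts in 5 of 48 Dry females.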
